A study of Mus musculus with 29 samples.

Results

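The 38 genes described here encode the machinery that copies DNA in S phase and the regulators that open it at the G1/S boundary, and they were followed in cardiac fibroblasts, the cells that build and maintain the collagen matrix of the heart. The members are a list of symbols put together with earlier results of these data known, and each of the 38 symbols matched 1 of the 55357 genes in the deposited count table. RNA-seq counts were available for 29 libraries of primary mouse cells in 10 groups. The cells came from aged mice (ACF) or young mice (YCF) and were either cultured for 48 h or sequenced fresh after isolation. Culture was on DECIPHER substrates, in which heart extracellular matrix (ECM) is held within a hydrogel. The matrix came from aged (A) or young (Y) heart and the gel was stiff or soft, which gave the groups ACF+StiffA, YCF+StiffA, ACF+SoftA, YCF+SoftA, ACF+StiffY, YCF+StiffY, ACF+SoftY and YCF+SoftY beside fresh ACF and fresh YCF. Each group held 3 libraries, except YCF+SoftY with 2. The sources used here give no strain, sex, age in months or number of animals. Libraries of 1 group are labelled as biological replicates but are not tied to animals, so a p-value speaks only of the variation among the libraries sequenced. Library names carry 1 letter for each substrate and 1 for fresh cells, so that an effect of handling by substrate cannot be told apart from the substrate or from culture.

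Eukaryotic DNA replication is prepared in G1, when CDC6 and CDT1 load the ring-shaped MCM helicase onto origins. At the start of S phase, CDC45 and the GINS complex join the ring and turn it into the active helicase, and primase, the DNA polymerases, the sliding clamp PCNA and its loader RFC copy the strands. Ribonucleotide reductase and thymidylate synthase supply the nucleotides, and chromatin assembly factor and the maintenance methyltransferase DNMT1 restore chromatin and DNA methylation behind the fork. Most of these genes are transcribed late in G1 under the E2F factors, while genes of mitosis are switched on later in the cycle through a different promoter element, the cell cycle genes homology region (CHR). In the adult heart, fibroblasts are largely quiescent and re-enter the cycle after injury or in culture.

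Promoter sequences are shown because nearly all members moved together in the comparisons of fresh cells and of culture, and because the motifs in their promoters can be set beside those of genes of mitosis. The sequences are the 250 bases before the annotated start in RefSeq, build GRCm38.p6, written 5′ to 3′ on the strand of the gene. Capitals mark matches on either strand to an E2F-type motif, spelled TTTCCCGC, TTTGGCGC, TTTCGCGC or TTTGCCGC, and for Top2a matches to the CHR, spelled TTTGAA. Mcm6 and Mcm5 encode helicase ring subunits, Cdc6 a helicase loader, Hells a chromatin remodeler and Top2a the topoisomerase that untangles chromosomes before mitosis. The intervals are chr1:128359706-128359955 (minus strand) for Mcm6, chr8:75109259-75109508 (plus) for Mcm5, chr11:98907901-98908150 (plus) for Cdc6, chr19:38930740-38930989 (plus) for Hells and chr11:99024190-99024439 (minus) for Top2a.
Mcm6: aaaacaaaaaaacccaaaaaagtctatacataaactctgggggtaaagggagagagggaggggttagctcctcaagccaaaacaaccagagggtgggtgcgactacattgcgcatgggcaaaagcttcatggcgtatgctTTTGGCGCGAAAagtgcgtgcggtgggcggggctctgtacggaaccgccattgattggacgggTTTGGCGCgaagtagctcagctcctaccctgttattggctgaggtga
Mcm5: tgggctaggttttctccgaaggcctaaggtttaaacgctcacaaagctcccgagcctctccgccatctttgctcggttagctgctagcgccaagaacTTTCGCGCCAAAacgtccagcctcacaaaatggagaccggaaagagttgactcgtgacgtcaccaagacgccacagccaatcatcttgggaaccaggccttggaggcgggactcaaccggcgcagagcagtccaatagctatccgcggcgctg
Cdc6: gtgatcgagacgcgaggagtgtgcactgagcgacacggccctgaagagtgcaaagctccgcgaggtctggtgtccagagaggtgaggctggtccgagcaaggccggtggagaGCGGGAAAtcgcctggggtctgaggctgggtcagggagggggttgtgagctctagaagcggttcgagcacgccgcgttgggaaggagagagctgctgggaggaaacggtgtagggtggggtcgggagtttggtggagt
Hells: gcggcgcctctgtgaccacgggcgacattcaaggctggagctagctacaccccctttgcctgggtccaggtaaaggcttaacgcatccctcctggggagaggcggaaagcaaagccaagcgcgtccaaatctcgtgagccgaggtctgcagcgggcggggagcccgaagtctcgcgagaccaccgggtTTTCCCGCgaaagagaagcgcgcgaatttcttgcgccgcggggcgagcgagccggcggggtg
Top2a: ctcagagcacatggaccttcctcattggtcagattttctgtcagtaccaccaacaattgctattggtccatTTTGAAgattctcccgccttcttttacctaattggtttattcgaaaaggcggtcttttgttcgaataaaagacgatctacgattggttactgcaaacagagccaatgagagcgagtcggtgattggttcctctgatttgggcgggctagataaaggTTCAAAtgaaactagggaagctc
In Mcm6 the matches began at -110, -106 and -47 relative to the start, and in Mcm5 at -153 and -149, so that in each gene a pair of matches on opposite strands overlapped. Of the 39 windows of members, some genes having several, 33 also held the first bases of a GENCODE transcript of the gene. The windows of Mcm5 and Mcm6 did not, so their positions are relative to the RefSeq start alone, and Top2a was not checked in this way. Cdc6 held 1 match at -138 and Hells 1 at -62.

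RefSeq windows of 300 bases, from 250 before to 50 after each start, were found for 32 of the 38 members and not used for Mcm4, Gins1, Gins2, Pole, Rfc2 and Ccne2. An E2F-type match was present in 13 of the 32 members (40.6%), against 2.60% of 27025 genes with a window. The 13 were Cdc6, Cdt1, Mcm3, Mcm5, Mcm6, Mcm7, Pola1, Pold1, Rfc3, Lig1, Dnmt1, Uhrf1 and Hells. Among 26 genes of mitosis with a window, 1 held such a match (3.85%). The CHR letters showed the opposite pattern, with matches in 4 of 32 members (12.5%), in 20 of 26 genes of mitosis (76.9%) and in 20.2% of all genes. The CCAAT box, a common promoter element spelled CCAAT, was found in 56.2% of the members, 76.9% of the genes of mitosis and 41.1% of all genes. A match describes letters in a window and not a bound factor, and these shares carry no test.

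**Figure D1:**
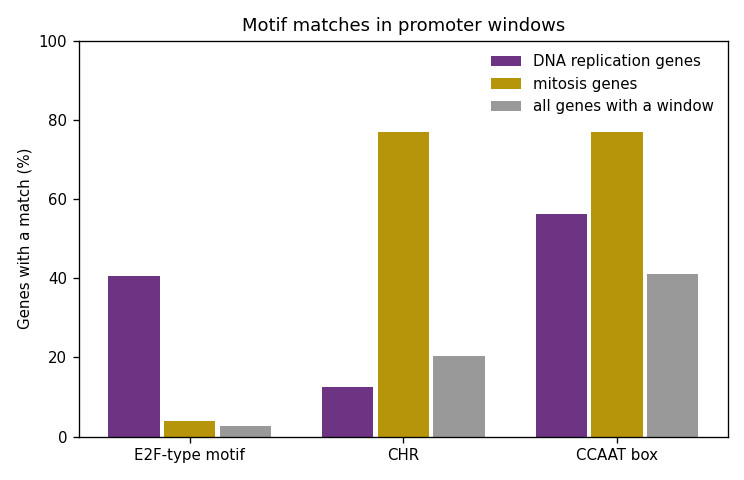
Share of genes (%) with at least 1 match to the E2F-type motif, the CHR and the CCAAT box in windows of 300 bases around the start, for 32 DNA replication genes, 26 genes of mitosis and 27025 genes. The E2F-type motif was found in 40.6% of the replication genes and the CHR in 76.9% of the genes of mitosis.

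Libraries held 1192668 to 3275089 counts, so that 10 CPM (the usual depth-scaled unit, here counts over TMM-scaled library totals) rested on 12.02 to 34.6 counts. The members together took 0.152% to 0.686% of the counts of a library. Mitochondrially encoded transcripts took 0.428% to 0.730% of counts. The median of the members' coefficients of variation within a group lay between 7.31% in fresh YCF and 17.8% in YCF+SoftA. Gins1, Fen1 and E2f1 had few counts in every library, at 1 to 74, 3 to 64 and 13 to 64 counts. Cdt1, Cdc45, Mcm10, Rfc3 and Prim1 held only 5, 8, 10, 12 and 13 counts in their lowest library. These members are read with more caution than Rrm2 at 253 to 4060. Changes are log2 fold changes ± SE. Their p-values come from the quasi-likelihood test in edgeR and were adjusted over all genes tested, and a gene is said to have risen or fallen where the adjusted p was below 0.05. All 38 members passed the filter on low counts in each of the 3 fits, of 6 fresh, 23 cultured and all 29 libraries.

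The summed level of the 38 members was highest in freshly isolated young cells and lowest in the cultured groups, which lay between 1576 and 2186 CPM. It was 3303 to 3526 CPM in fresh ACF, against 6188 to 6486 CPM in fresh YCF. Cultured cells measured 1828 to 1900 CPM in ACF+StiffA, 1672 to 1731 CPM in YCF+StiffA, 1721 to 1744 CPM in ACF+SoftA and 1576 to 1665 CPM in YCF+SoftA. On young matrix the sums were 1698 to 1845 CPM in ACF+StiffY, 2154 to 2186 CPM in YCF+StiffY, 1644 to 1675 CPM in ACF+SoftY and 1667 to 1708 CPM in YCF+SoftY. The order fresh YCF, then fresh ACF, then the cultured groups held for 35 of the 38 members taken singly. Rrm1, Tk1 and E2f1 departed from it, as described below. Group means of a member differed 4.62-fold between its highest and lowest group in the median, from 2.26-fold for Slbp to 12.3-fold for Cdt1. The lowest group of Cdt1, YCF+SoftA, averaged 5.19 CPM and rests on few counts.

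**Figure D2:**
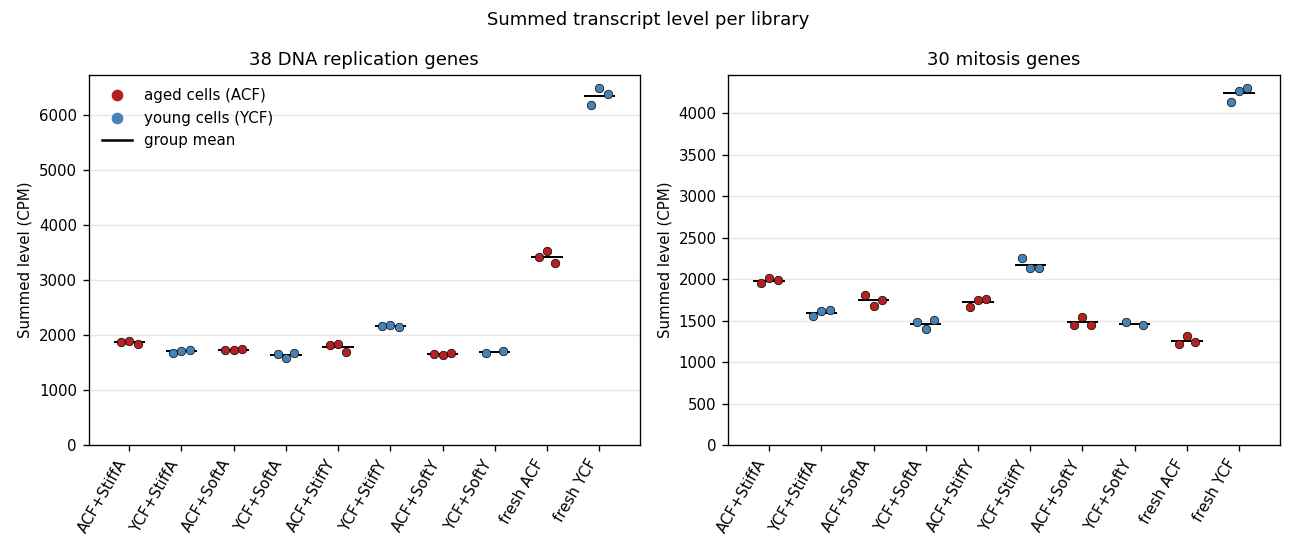
Summed level (CPM) of the 38 DNA replication genes (left) and of 30 genes of mitosis (right), 1 point per library, by group, with aged cells in red and young cells in blue. Fresh ACF lie at 3303 to 3526 CPM and fresh YCF at 6188 to 6486 CPM for the replication genes, and no cultured library exceeds 2186 CPM.

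**Figure D3:**
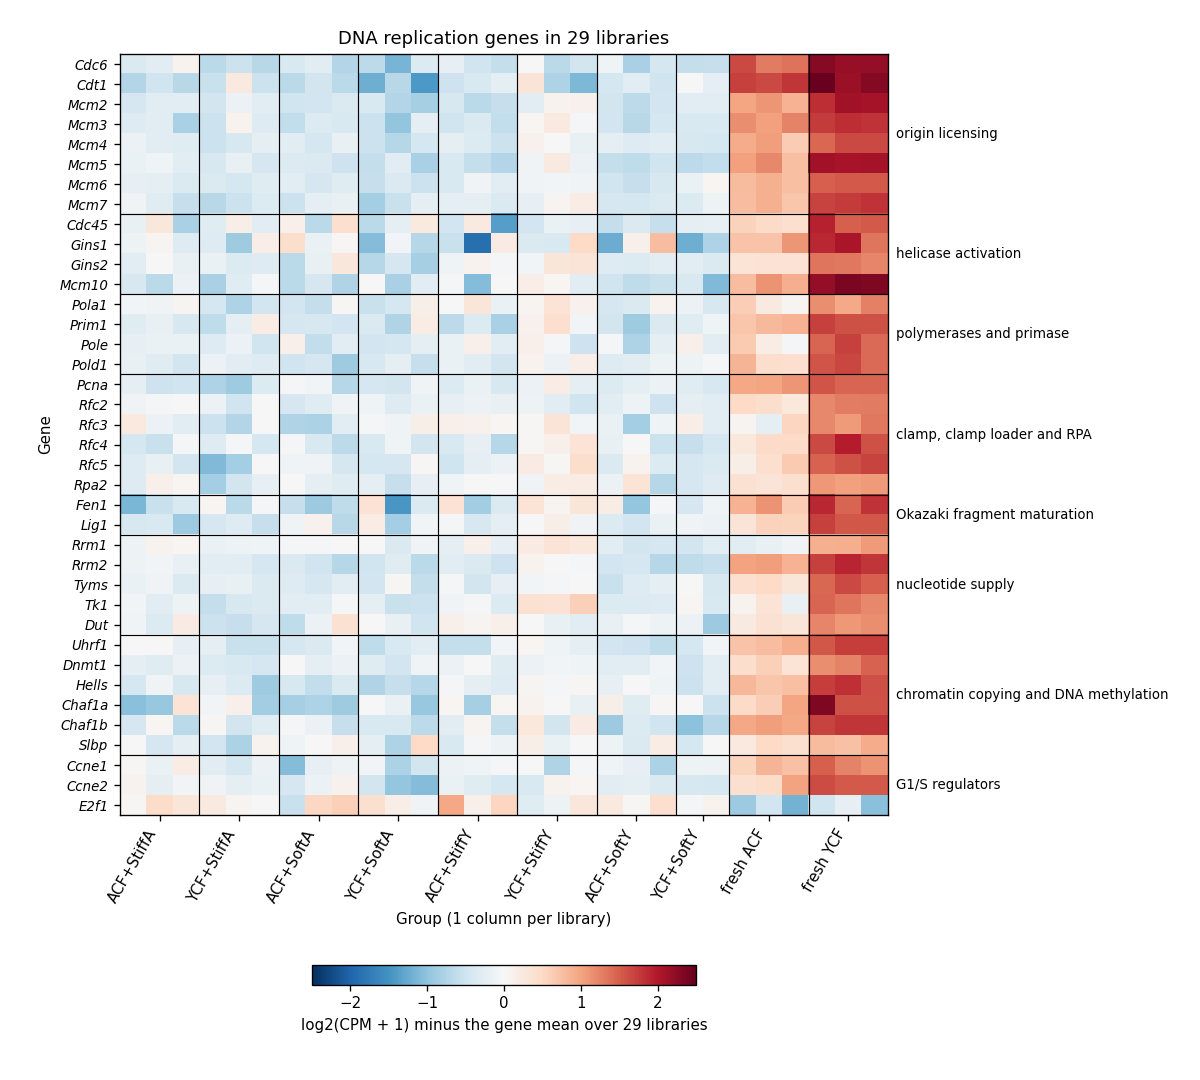
Level of each member (rows, ordered by role) in each of the 29 libraries (columns, by group), as log2(CPM + 1) minus the mean of the gene over all libraries. The 3 columns of fresh YCF are highest in 37 of the 38 genes by group mean, and E2f1 is the exception.

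Fresh ACF were compared with fresh YCF to ask how age bears on the cells before any culture. Of the 38 members, 37 fell and 0 rose in fresh ACF, where 31.8% of 11786 genes were called in either direction and 16.8% were called lower. The median log2 fold change of the members was -0.94, against -0.02 over all genes tested, and the summed level in fresh ACF was 0.537 times that in fresh YCF (0.533 times without Rrm2, which contributed most counts). In 37 members every fresh ACF library lay below every fresh YCF library, which held for 21.4% of all genes. In RNA from a whole population, fewer cells in S phase and less RNA per cell cannot be told apart.

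Among the licensing factors, 8 of 8 fell in fresh ACF, with a median log2 fold change of -0.78. Mcm5, a subunit of the helicase ring (ENSMUSG00000005410, chromosome 8 from 75836197, mm39), measured 126, 142 and 104 CPM in fresh ACF, against 267, 261 and 264 CPM in fresh YCF. The groups did not overlap, and the log2 fold change was -1.13 ± 0.10 (adjusted p = 5.64e-07). Mcm2, another ring subunit, measured 207, 224 and 190.2 CPM in fresh ACF and 378, 449.6 and 443 CPM in fresh YCF, with a log2 fold change of -1.07 ± 0.08. The loader Cdc6 fell to 64.7, 50.8 and 52.8 CPM in fresh ACF against 100.5, 93.3 and 94.4 CPM in fresh YCF, a log2 fold change of -0.81 ± 0.12. Cdt1, the partner of CDC6 in loading, changed by -0.64 ± 0.13, and Mcm3, Mcm4, Mcm6 and Mcm7 lay between -0.69 and -1.01.

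Of the factors that turn the loaded ring into a running helicase, 4 of 4 fell in fresh ACF, with a median of -1.15, in a range that overlaps that of the licensing factors. Mcm10, which is needed for origin firing, had the largest fall of the 38 members. It measured 23.2, 29.97 and 25.6 CPM in fresh ACF, against 64.3, 72.2 and 70.5 CPM in fresh YCF, a log2 fold change of -1.43 ± 0.14 (adjusted p = 2.51e-06). Cdc45 followed at -1.25 ± 0.19, and the GINS subunits Gins1 and Gins2 changed by -1.06 ± 0.26 and -1.01 ± 0.11. The low counts of Gins1 show in its wider error.

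All 4 polymerase and primase genes fell in fresh ACF. Pole, the catalytic subunit of the leading strand polymerase epsilon, measured 36.9, 26.2 and 22.4 CPM in fresh ACF and 65.0, 78.3 and 63.0 CPM in fresh YCF, with a log2 fold change of -1.31 ± 0.17. Pold1, of the lagging strand polymerase delta, changed by -1.01 ± 0.11, the primase subunit Prim1 by -0.90 ± 0.15 and Pola1, of the priming polymerase alpha, by -0.85 ± 0.15. Of the clamp loader genes, Rfc4 fell most and measured 42.3, 49.5 and 49.2 CPM in fresh ACF, against 114, 139 and 109 CPM in fresh YCF, a log2 fold change of -1.40 ± 0.12. The sliding clamp Pcna, which tethers the polymerases to DNA, fell by only 0.51 ± 0.09 on the log2 scale. Pcna measured 91.7, 94.1 and 102 CPM in fresh ACF and 141, 130.0 and 129 CPM in fresh YCF, which still did not overlap. Rfc2, Rfc3 and Rfc5 changed by -0.90, -1.10 and -1.22, and Rpa2, of the single-strand binding protein RPA, by -0.73 ± 0.11. The enzymes that join Okazaki fragments fell as well, Lig1 (DNA ligase) by 1.17 ± 0.12 and Fen1 (flap nuclease) by 0.92 ± 0.24 on the log2 scale.

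The 5 genes of nucleotide supply fell together, with a median of -1.16. Rrm2, the small subunit of ribonucleotide reductase and the member with the most counts, measured 625, 643 and 567 CPM in fresh ACF, against 1027, 1172 and 1083 CPM in fresh YCF, a log2 fold change of -0.87 ± 0.06. Its large subunit Rrm1 had 173, 183 and 196 CPM in fresh ACF and 387, 392 and 437 CPM in fresh YCF, a log2 fold change of -1.17 ± 0.07 (adjusted p = 2.54e-08). The thymidine kinase Tk1 changed by -1.30 ± 0.14, thymidylate synthase (Tyms) by -1.16 ± 0.08 and the dUTPase gene Dut by -0.91 ± 0.13. In none of the 5 did a fresh ACF library reach the lowest fresh YCF library.

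Of the genes that copy chromatin and DNA methylation, 6 of 6 fell in fresh ACF with a median of -0.89. Dnmt1, the maintenance methyltransferase, measured 139, 154 and 129 CPM in fresh ACF and 229, 239.7 and 284 CPM in fresh YCF, a log2 fold change of -0.87 ± 0.09. Uhrf1, which recruits DNMT1 to replicated DNA, changed by -0.91 ± 0.10 and the remodeler Hells by -1.02 ± 0.10. The chromatin assembly factor subunits Chaf1a and Chaf1b changed by -1.23 ± 0.21 and -0.80 ± 0.10, and the histone mRNA binding protein Slbp by -0.46 ± 0.09. Of the G1/S regulators, the cyclins Ccne1 and Ccne2 fell by 0.61 ± 0.13 and 0.96 ± 0.15 on the log2 scale. E2f1, an activator of most of these genes, was the 1 member not called. E2f1 measured 7.88, 10.82 and 6.30 CPM in fresh ACF, against 10.7, 13.3 and 7.05 CPM in fresh YCF, with overlapping groups and a log2 fold change of -0.38 ± 0.31 (adjusted p = 0.391). Fitted with all 29 libraries, the calls of Gins1 (adjusted p = 0.0503) and Slbp (adjusted p = 0.112) were lost, while 37 were called without any 1 of the 6 fresh libraries.

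Markers of other cell types were read in the same libraries. The 10 fibroblast markers summed to 6479 to 6935 CPM in fresh ACF and 8024 to 8556 CPM in fresh YCF, with 6 of 10 called lower and 2 called higher. The 12 myeloid markers summed to 389 to 436 CPM in fresh ACF, against 219 to 223 CPM in fresh YCF, with 5 of 9 tested markers called higher, none called lower and none at 0 in either group. Of these, Cd14 rose with a log2 fold change of 1.86 ± 0.12 and Cd68 with 1.06 ± 0.11. The 12 endothelial markers summed to 220.5 to 238 CPM in fresh ACF and 167 to 182 CPM in fresh YCF, with 2 of 10 tested called higher. Pericyte and smooth muscle markers summed to 158 to 188 CPM in fresh ACF and 308 to 378 CPM in fresh YCF, with 2 of 3 tested called lower. Lymphocyte, cardiomyocyte and erythroid markers summed to at most 6.30 CPM in a fresh library, and none was tested. The part of these cells in the fall of the members was not tested.

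After 48 h on the substrates, nearly all members were lower than in fresh cells of the same age, and the drop was deeper in young cells. In ACF, 34 of 38 members fell and 1 rose in cultured over fresh cells, where 62.4% of 13523 genes were called and 32.5% were called lower. In YCF, 37 fell and 1 rose, where 56.9% of genes were called and 29.9% were called lower. The median log2 fold change was -0.95 in ACF and -1.87 in YCF, against -0.01 and -0.03 over all genes. The summed level in cultured ACF was 0.516 times that in fresh ACF, and in cultured YCF 0.283 times that in fresh YCF. Every cultured library lay below every fresh library of its age for 28 members in ACF (23.2% of all genes) and for 37 members in YCF (19.3% of all genes).

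**Figure D4:**
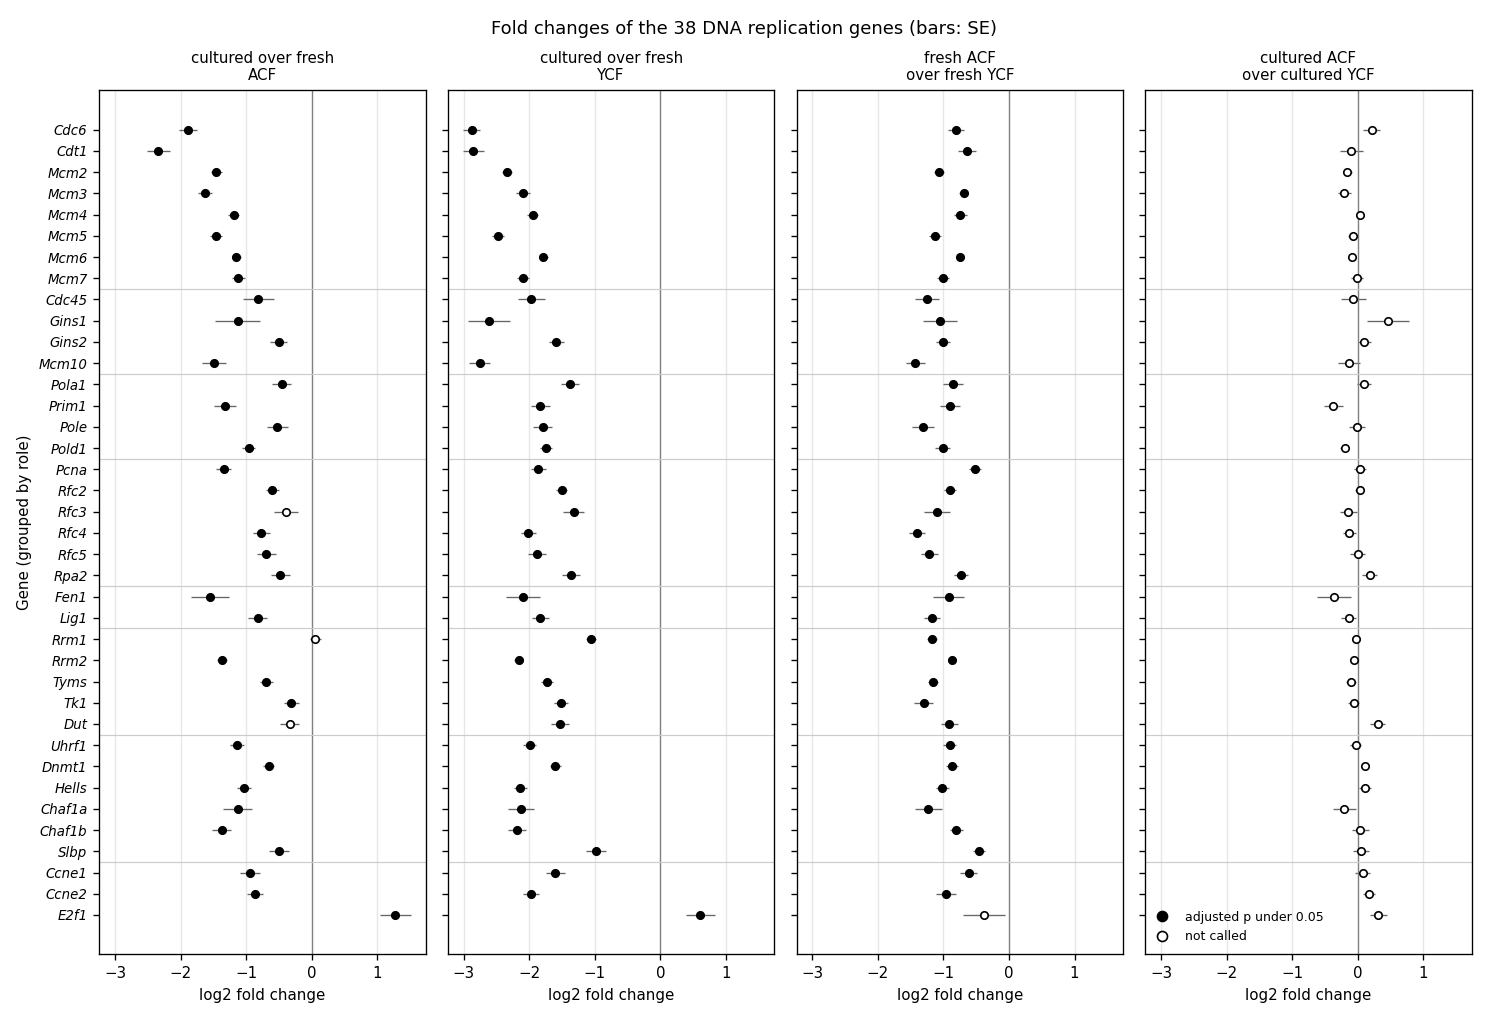
Log2 fold change ± SE of each of the 38 members, ordered by role, in cultured over fresh ACF, cultured over fresh YCF, fresh ACF over fresh YCF and cultured ACF over cultured YCF, with filled points for an adjusted p under 0.05. The first 3 panels lie mostly below 0, with medians of -0.95, -1.87 and -0.94, and the last lies around 0 with a median of -0.02.

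Of the licensing factors 8 of 8 fell at both ages, with a median of -1.46 in ACF and -2.22 in YCF. Cdt1 ranged from 6.87 to 10.04 CPM with a median of 8.28 CPM in cultured ACF, against 41.5, 40.0 and 44.1 CPM in fresh ACF, a log2 fold change of -2.34 ± 0.17. In YCF the same gene ranged from 3.85 to 15.3 CPM with a median of 7.90 CPM in culture and measured 71.2, 56.9 and 63.0 CPM in fresh cells, a log2 fold change of -2.85 ± 0.16. Cdc6 ranged from 10.96 to 21.3 CPM in cultured ACF and from 8.35 to 19.8 CPM in cultured YCF, below all fresh libraries, with log2 fold changes of -1.88 ± 0.14 in ACF and -2.88 ± 0.13 in YCF. The genes of the helicase ring itself, Mcm2 to Mcm7, changed by -1.12 to -1.63 in ACF and by -1.78 to -2.48 in YCF. The estimates for Cdc6 and Cdt1 lie below all of these, and that difference was not tested.

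Differences between the roles were not tested, and their medians are given as a description. The helicase activators had medians of -0.97 in ACF and -2.29 in YCF, the polymerase genes -0.74 and -1.77, the clamp, its loader and Rpa2 -0.64 and -1.68, and the chromatin genes -1.08 and -2.06. Genes of nucleotide supply had a median of -0.33 in ACF, where 3 of 5 fell, and of -1.52 in YCF, where 5 of 5 fell. Rrm1 ranged from 151 to 228 CPM with a median of 197 CPM in cultured ACF, against 173, 183 and 196 CPM in fresh ACF, with overlapping groups and a log2 fold change of 0.06 ± 0.08 (adjusted p = 0.549). Rrm2 ranged from 189 to 296 CPM with a median of 237 CPM in cultured ACF, against 567 to 643 CPM in fresh ACF, a log2 fold change of -1.37 ± 0.07. In YCF both fell, Rrm1 by 1.06 ± 0.07 and Rrm2 by 2.16 ± 0.07 on the log2 scale.

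The remaining members not called in ACF were the clamp loader gene Rfc3, at -0.40 ± 0.18 (adjusted p = 0.0624), and Dut, at -0.33 ± 0.15 (adjusted p = 0.0508). Tk1 was called at -0.31 ± 0.12, but the call was lost in 9 of the 15 fits that left out 1 library, with adjusted p up to 0.309 without fresh ACF replicate 2, and under 6 other settings. The calls of Pola1 (adjusted p = 0.157) and Pole (adjusted p = 0.177) were lost without fresh ACF replicate 1, and that of Gins1 (adjusted p = 0.0510) without fresh ACF replicate 3. Rfc3 was called without fresh ACF replicate 2 (adjusted p = 0.0204), ACF+SoftY replicate 3 (adjusted p = 0.0482) or ACF+SoftA replicate 3 (adjusted p = 0.0491), and Dut without ACF+SoftA replicate 3 (adjusted p = 0.0146) or ACF+StiffA replicate 3 (adjusted p = 0.0476).

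E2f1 was the only member higher in culture at both ages. It ranged from 10.3 to 31.2 CPM with a median of 20.3 CPM in cultured ACF, against 7.88, 10.82 and 6.30 CPM in fresh ACF, a log2 fold change of 1.28 ± 0.24 (adjusted p = 2.53e-05). In YCF it ranged from 12.5 to 20.8 CPM with a median of 16.3 CPM in culture, against 10.7, 13.3 and 7.05 CPM in fresh cells, a log2 fold change of 0.61 ± 0.22 (adjusted p = 0.0211). The cultured and fresh values of E2f1 overlapped at both ages, and the call in YCF was lost without fresh YCF replicate 3 (log2 fold change 0.45, adjusted p = 0.119). Library totals without TMM factors also ended it, at 0.50 (adjusted p = 0.0571).

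In the same comparisons, the fibroblast markers summed to 19821 to 26919 CPM in cultured ACF and 24022 to 32085 CPM in cultured YCF, above the fresh values given earlier, with 7 of 10 called higher and 2 lower in ACF and 8 higher and 1 lower in YCF. Myeloid markers summed to 23.1 to 42.8 CPM in cultured ACF and 25.9 to 67.8 CPM in cultured YCF, below the fresh values. Of 9 tested myeloid markers, 9 fell in ACF and 7 in YCF. Endothelial markers summed to 100.02 to 198 CPM in cultured ACF and 73.2 to 139 CPM in cultured YCF, below the fresh values, and of 10 tested 8 fell and 1 rose in ACF, and 9 fell and 1 rose in YCF. Pericyte and smooth muscle markers summed to 456 to 595 CPM in cultured ACF, against 158 to 188 CPM in fresh ACF, and to 370.2 to 553 CPM in cultured YCF, against 308 to 378 CPM in fresh YCF. Of 5 tested, 3 rose in ACF, and 3 rose and 1 fell in YCF. Cardiomyocyte markers summed to 3.76 to 11.6 CPM in cultured ACF and 10.4 to 23.9 CPM in cultured YCF, against at most 6.30 CPM in fresh cells. Whether the change in cell make-up bears on the members was not tested.

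The culture response itself was set against age as a difference of differences, in which a positive value means that the drop was smaller in ACF. Of the 38 members, 33 had a higher value in ACF and 0 a lower one, where 20.6% of 13523 genes were called and 10.5% were called higher. The median difference was 0.94, against -0.01 over all genes. Helicase activators had a median of 1.21 and nucleotide supply one of 1.11. Rrm1 had a difference of 1.11 ± 0.11 (adjusted p = 4.48e-09), and Tk1 one of 1.21 ± 0.16 (adjusted p = 1.46e-06). The members not called were Cdt1 at 0.51 ± 0.25, Prim1 at 0.50 ± 0.23, Fen1 at 0.54 ± 0.40, Slbp at 0.49 ± 0.22 and E2f1 at 0.67 ± 0.33. This difference uses the same fresh libraries as the comparison of fresh ACF with fresh YCF and is no separate evidence beside it.

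Some of these calls rested on single libraries. With each library left out in turn, 28 to 35 members were called. The call of Mcm3 was lost without fresh ACF replicate 1 or 2, fresh YCF replicate 2 or 3, ACF+SoftA replicate 2 or ACF+SoftY replicate 3, with adjusted p up to 0.119. That of Gins1 was lost without fresh ACF replicate 1 or 2, fresh YCF replicate 1 or 2, or ACF+StiffY replicate 3, with adjusted p up to 0.0817. Pcna and Chaf1a lost theirs without fresh ACF replicate 1 or 2 or fresh YCF replicate 1, and Ccne1 without fresh ACF replicate 1 or 3 or fresh YCF replicate 1. Cdt1 gained a call without YCF+StiffY replicate 1 (adjusted p = 0.0258), Prim1 without YCF+SoftA replicate 3 (adjusted p = 0.0494), and Slbp without YCF+SoftA replicate 3 (adjusted p = 0.0158) or YCF+StiffA replicate 3 (adjusted p = 0.0463). With library totals only, Cdt1 (adjusted p = 0.0389), Prim1 (adjusted p = 0.0268) and Slbp (adjusted p = 0.0293) were called. Prim1 was also called by limma-voom (adjusted p = 0.0484), and Slbp without a filter on low counts (adjusted p = 0.0170) and without the 4 libraries under 1500000 counts (adjusted p = 0.0105).

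Between cultured ACF and cultured YCF, over the 4 substrates, 0 of 38 members were called by edgeR and 0 by DESeq2, with 6 at an unadjusted p under 0.05. In the same fit 15.0% of 12841 genes were called. The members' median was -0.02 (0.02 with library totals or upper quartile factors), and the values ran from -0.37 for Prim1 to 0.46 for Gins1. Mcm6 ranged from 90.4 to 126 CPM with a median of 107 CPM in cultured ACF and from 89.5 to 139 CPM with a median of 108 CPM in cultured YCF. Rrm2 ranged from 189 to 296 CPM with a median of 237 CPM in cultured ACF and from 195 to 333 CPM with a median of 252 CPM in cultured YCF. For Mcm6 the 95% interval of the log2 difference was -0.19 to 0.01, and for Rrm2 -0.16 to 0.05. With each library left out in turn, 0 to 2 members were called, and 1 or more without YCF+SoftY replicate 1, YCF+StiffY replicate 2, YCF+SoftA replicate 2 or 3, or ACF+SoftA replicate 1 or 2. In the same comparison 8 of 10 fibroblast markers fell, and of 9 endothelial markers tested 7 rose and 1 fell, and their part in the members' values was not tested.

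Few members differed between substrates, and most of those that did were ring, nucleotide supply or cyclin genes in young cells. For stiff over soft gel in YCF, 4 members rose and 0 fell (3.56% of genes called). For aged over young matrix in YCF, 0 rose and 2 fell (2.49% of genes). For StiffA over SoftY in YCF, which changes gel and matrix together, 0 were called by edgeR (5.26% of genes called) and 0 by DESeq2. At an unadjusted p under 0.05 there were 3 members. The same comparisons in ACF gave 0 calls for stiff over soft gel (0.296% of genes, 4 at an unadjusted p under 0.05), 0 for aged over young matrix (7.44%, 4) and 2 higher for StiffA over SoftY (4.21%). DESeq2 gave the same counts in ACF.

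Among cultured YCF, the group on StiffY had the highest mean of the 4 for 31 of 38 members. Because of that, the groups were also compared in pairs, a choice made after the first results were seen. In YCF+StiffY over YCF+SoftY, 4 members rose and 0 fell, where 4.56% of genes were called, with a median of 0.33 and 15 members at an unadjusted p under 0.05. Rrm1 measured 240.6, 265 and 251 CPM on StiffY, against 149 and 174 CPM on SoftY, a log2 fold change of 0.65 ± 0.12 (adjusted p = 0.000901). Rrm2 measured 333, 311 and 301 CPM on StiffY and 201 and 208 CPM on SoftY, a log2 fold change of 0.63 ± 0.12 (adjusted p = 0.00149). Mcm5 measured 58.1, 72.2 and 55.7 CPM on StiffY and 38.6 and 40.0 CPM on SoftY (0.68 ± 0.16), and Tk1 measured 44.0, 43.5 and 51.6 CPM on StiffY and 35.0 and 25.6 CPM on SoftY (0.59 ± 0.17). None of the 4 genes overlapped between the groups. Here and in the substrate comparisons below, the share of all genes without overlap is not given, so a lack of overlap only describes the values. Mcm5 lost its call without YCF+StiffY replicate 2 (adjusted p = 0.0934). Without YCF+SoftY replicate 1, which leaves 1 library on SoftY, the log2 fold change was 0.64 for Mcm5 and 0.53 for Rrm1. For Mcm5 it was 0.69 without YCF+SoftY replicate 2. Values set against 1 library do not show that the calls hold. Cell type markers moved between these groups too. Fibroblast markers summed to 24022 to 24838 CPM on StiffY, against 29245 to 31619 CPM on SoftY, with 5 of 10 called lower. Myeloid markers summed to 25.9 to 37.4 CPM on StiffY, against 52.6 to 58.7 CPM on SoftY, with 1 of 4 tested called lower, and endothelial markers to 73.2 to 100.1 CPM on StiffY, against 103 to 112 CPM on SoftY, with 1 of 9 tested called lower. Their part in the rise of the 4 members was not tested. The remaining pair on stiff or soft gel, YCF+StiffA over YCF+SoftA, gave 0 calls by edgeR (0.210% of genes called) and 0 by DESeq2. At an unadjusted p under 0.05 there were 3 members. YCF+SoftY has 2 libraries, and without its replicate 1 or its replicate 2 the count was 2, while Tk1 lost its call without YCF+SoftY replicate 2 (adjusted p = 0.384), any 1 of the 3 StiffY libraries or under 6 other settings.

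Over both matrices, stiff over soft gel in YCF gave log2 fold changes of 0.33 ± 0.08 for Rrm1, 0.39 ± 0.08 for Rrm2, 0.43 ± 0.11 for Mcm5 and 0.52 ± 0.14 for Ccne2, the cyclin that drives entry into S phase with CDK2. Ccne2 measured 29.95, 27.3 and 28.4 CPM on StiffA and 24.2, 34.1 and 33.3 CPM on StiffY, against 23.2, 15.9 and 14.6 CPM on SoftA and 24.1 and 23.5 CPM on SoftY. The stiff and soft libraries were separated only by 24.2 against 24.1 CPM, and the call of Ccne2 was lost in 9 of 11 fits that left out 1 library. Among these was the fit without YCF+SoftA replicate 2 (adjusted p = 0.101). The calls of Mcm5 and Rrm1 were lost in 6 and in 1 of the 11. For Mcm5 these included the fit without YCF+StiffY replicate 2 (adjusted p = 0.0824). With no filter on low counts, Mcm5 (adjusted p = 0.0671) and Ccne2 (adjusted p = 0.105) also lost their calls. Without YCF+SoftY replicate 1 the count was 1, and without YCF+SoftY replicate 2 or YCF+StiffA replicate 2 it was 2. Without the 4 libraries under 1500000 counts, YCF+SoftA keeps 1 library. The log2 fold changes were then 0.34 for Mcm5, 0.32 for Rrm2 and 0.57 for Ccne2, which does not show that their calls hold. DESeq2 did not call Ccne2 (0.52, adjusted p = 0.0622).

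On aged over young matrix, Mcm6 and Tk1 fell in YCF. Mcm6 measured 105, 98.3 and 108 CPM on StiffA and 89.5, 104 and 92.4 CPM on SoftA, against 126, 127 and 126 CPM on StiffY and 119 and 139 CPM on SoftY, a log2 fold change of -0.36 ± 0.08 (adjusted p = 0.00740). Every library on aged matrix lay below every library on young matrix. Tk1 measured 22.05, 25.4 and 26.2 CPM on StiffA and 28.6, 22.6 and 23.1 CPM on SoftA, with the young matrix values given above, a log2 fold change of -0.61 ± 0.12 (adjusted p = 0.00314). On stiff gel alone, Tk1 had a log2 fold change of -0.91 ± 0.16 in YCF+StiffA over YCF+StiffY (adjusted p = 0.00414), the 1 member called there (0.350% of genes). On soft gel alone Mcm6 fell by 0.42 ± 0.11 on the log2 scale in YCF+SoftA over YCF+SoftY (adjusted p = 0.0395), the 1 member called (2.86% of genes). These Tk1 calls were lost without YCF+SoftY replicate 1 (matrix effect, adjusted p = 0.0805) and without YCF+StiffA replicate 1 (stiff gel alone, 0.0507). The Mcm6 calls were lost without YCF+SoftY replicate 2 (matrix effect, adjusted p = 0.0930) and without YCF+SoftY replicate 1 or 2 or YCF+SoftA replicate 1 or 3 (soft gel alone, up to 0.334).

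Whether stiffness acted differently on the 2 matrices was tested as an interaction. In YCF 0 members were called by edgeR (0.615% of genes, 10 members at an unadjusted p under 0.05) and 1 by DESeq2, and in ACF 0 by either tool (0.0234% of genes, none at an unadjusted p under 0.05). The median interaction was -0.27 in YCF and 0.02 in ACF. The differences between ACF and YCF in the effects of gel and of matrix gave 0 calls by either tool. By edgeR, 0.787% and 0.0935% of all genes were called there at an adjusted p under 0.05. At an unadjusted p under 0.05 there were 6 and 11 members, a looser threshold that cannot be set against those shares. A stiffness effect in young cells is therefore not shown to differ from that in aged cells.

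**Figure D5:**
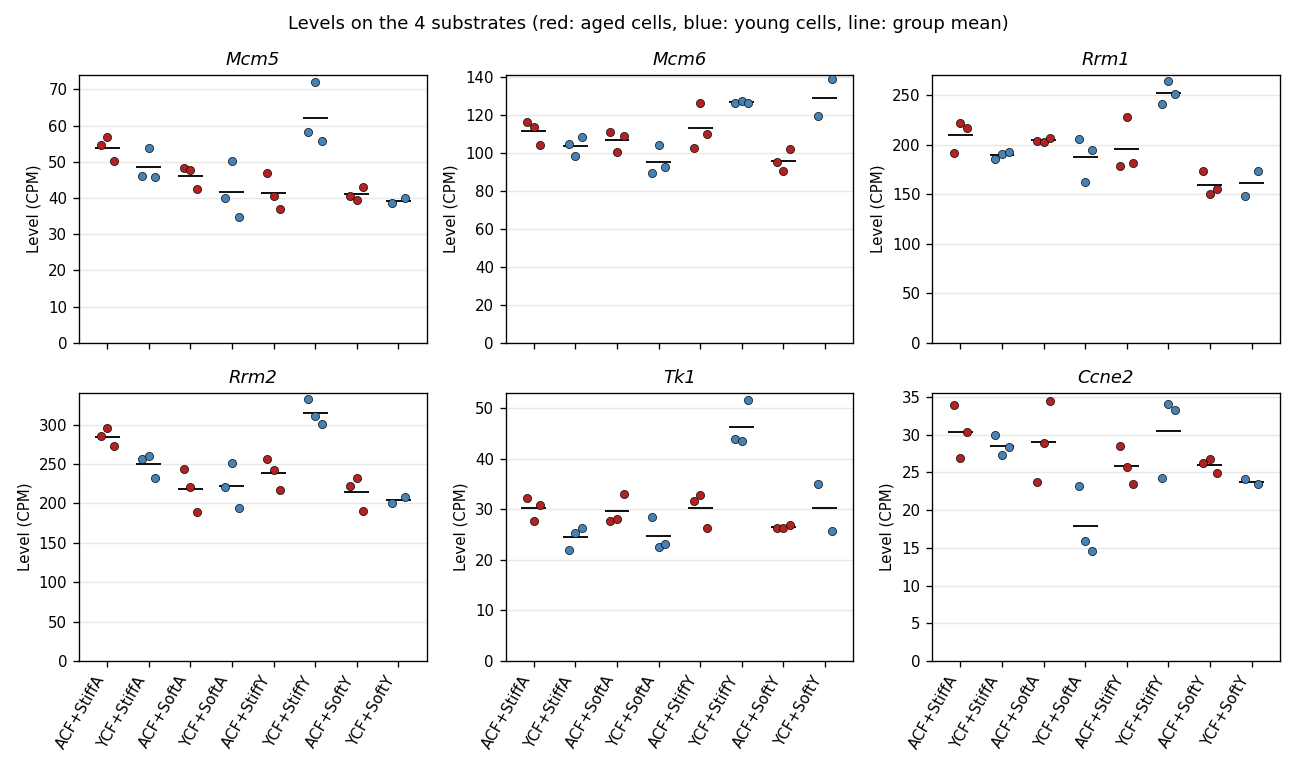
Level (CPM) of Mcm5, Mcm6, Rrm1, Rrm2, Tk1 and Ccne2 in the 8 cultured groups, 1 point per library, with the group mean as a line, aged cells in red and young cells in blue. YCF+StiffY stands highest for Rrm1 and Rrm2, at 240.6 to 265 CPM and 301 to 333 CPM.

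In ACF the 4 pairwise comparisons of substrates gave 0 calls each by edgeR and by DESeq2, with 2 to 4 members at an unadjusted p under 0.05. The shares of all genes called there were 0.366% for ACF+StiffA over ACF+SoftA, 0.0545% for ACF+StiffY over ACF+SoftY, 2.71% for ACF+StiffA over ACF+StiffY and 2.06% for ACF+SoftA over ACF+SoftY. For ACF+StiffA over ACF+SoftY, Rrm1 measured 192, 222 and 217 CPM on StiffA, against 173, 151 and 155 CPM on SoftY, a log2 fold change of 0.41 ± 0.11 (adjusted p = 0.0240). Rrm2 measured 285, 296 and 273 CPM on StiffA and 223, 232 and 190.1 CPM on SoftY, a log2 fold change of 0.42 ± 0.11 (adjusted p = 0.0203). Neither gene overlapped, yet with each library left out in turn 0 or 1 of the 2 calls remained: 0 without ACF+SoftY replicate 3 or ACF+StiffA replicate 2, and 1 without each of the other 4 libraries. Endothelial markers summed to 144 to 191 CPM in ACF+StiffA, against 100.02 to 121 CPM in ACF+SoftY, with 4 of 9 tested called higher, and of 10 fibroblast markers 2 rose and 3 fell; their part was not tested.

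Aged and young cells were also compared on the same substrate, a choice made after the first results were seen. On StiffY 5 members fell in ACF over YCF (4.19% of genes). These were Mcm2 (-0.54 ± 0.13), Mcm5 (-0.62 ± 0.14), Rrm1 (-0.38 ± 0.10), Rrm2 (-0.42 ± 0.11) and Tk1 (-0.62 ± 0.16). Rrm1 measured 179, 228 and 182 CPM in ACF+StiffY, against 240.6, 265 and 251 CPM in YCF+StiffY. Tk1 measured 31.7, 32.8 and 26.3 CPM in ACF+StiffY, against 44.0, 43.5 and 51.6 CPM in YCF+StiffY. In this comparison 1 of 10 fibroblast markers rose and 3 fell, and 3 of 9 endothelial markers rose, and their part was not tested. On SoftA 1 member, Ccne2, was higher in ACF (0.74 ± 0.20, 3.13% of genes), and on SoftY 1, Mcm6, was lower (-0.43 ± 0.11, 1.96% of genes). On StiffA 0 were called by edgeR (2.94% of genes called) or DESeq2, with 4 members at an unadjusted p under 0.05. None of the 6 libraries on StiffY could be left out without the count dropping to between 0 and 3, with 0 without ACF+StiffY replicate 3, 1 without YCF+StiffY replicate 2, 2 without YCF+StiffY replicate 1 or 3 or ACF+StiffY replicate 2, and 3 without ACF+StiffY replicate 1. The call of Mcm6 on SoftY was lost without any 1 of the 5 libraries (adjusted p up to 0.360), and that of Ccne2 on SoftA without YCF+SoftA replicate 2 or 3 or ACF+SoftA replicate 2 or 3 (up to 0.23), while 2 members were called without ACF+SoftA replicate 1.

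Other genes of the pathway were read in the comparisons of fresh cells and of culture. Over all genes tested, 16.8% were called lower in fresh ACF, 32.5% in cultured over fresh ACF and 29.9% in cultured over fresh YCF, and the lists are to be read against these shares. Of 38 further replisome and licensing genes, 24 fell and 1 rose in fresh ACF over fresh YCF, 26 fell and 1 rose in cultured over fresh ACF, and 31 fell and 0 rose in cultured over fresh YCF. The single-strand binding subunit Rpa1 changed by -0.68 ± 0.07 in fresh ACF and by -1.06 ± 0.07 in cultured YCF. Gmnn, an inhibitor of licensing, and Cdc7, the kinase that fires origins, changed by -1.41 ± 0.17 and -1.56 ± 0.19 in fresh ACF. Of 20 fork repair and checkpoint genes, 17 fell in fresh ACF, 7 in cultured ACF and 20 in cultured YCF, and none rose. The 7 in cultured ACF are 35% of the list, a share near that of all genes.

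Of 22 further nucleotide synthesis genes, 12 fell and 1 rose in fresh ACF, 15 fell and 5 rose in cultured over fresh ACF, and 17 fell and 4 rose in cultured over fresh YCF. The serine and glycine enzymes Shmt1 and Shmt2 of the folate cycle changed by -2.86 ± 0.22 and -1.39 ± 0.08 in cultured ACF, and by -3.27 ± 0.21 and -1.68 ± 0.08 in cultured YCF. The CTP synthase gene Ctps changed by -0.65 ± 0.08 in fresh ACF.

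The upstream regulators held genes called in each direction. Of 21 G1 cyclins, kinases and E2F factors, 20 were tested in fresh cells and 13 fell and 3 rose in fresh ACF. Among all 21, 8 fell and 5 rose in cultured ACF, and 15 fell and 3 rose in cultured YCF. In cultured ACF 61.9% of this list was called in either direction, against 62.4% of all genes, so that its count there is at the background. Cyclin D1 (Ccnd1), which begins the inactivation of the retinoblastoma protein, rose in fresh ACF (0.57 ± 0.07) and fell in culture, by 0.96 ± 0.07 in ACF and 0.73 ± 0.07 in YCF on the log2 scale. Ccnd1 also rose on stiff gel in YCF (0.61 ± 0.07). Of the pocket proteins and inhibitors of cyclin-dependent kinases, 12 of 14 were tested in fresh cells, and 5 fell and 1 rose in fresh ACF. The riser was Cdkn1a, the p21 inhibitor, at 1.16 ± 0.08, and it rose again in culture, by 0.37 ± 0.08 in ACF and by 1.59 ± 0.09 in YCF on the log2 scale.

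Genes of mitosis, which are expressed later in the same cycle, were also read. Of 30, 30 fell in fresh ACF with a median of -1.81. The proliferation marker Mki67 measured 28.7 to 38.6 CPM in fresh ACF, against 136 to 151 CPM in fresh YCF, a log2 fold change of -2.08 ± 0.12. Plk1 and Top2a changed by -2.01 ± 0.09 and -1.80 ± 0.13 there. In cultured over fresh ACF, 19 of 30 rose and 2 fell with a median of 0.46, where 4042 of 13523 genes were called higher. Of the 38 replication genes, 34 fell there. In cultured over fresh YCF all 30 fell, with a median of -1.40, against -1.87 for the replication genes. The ratio of the summed level of mitosis genes to that of replication genes was 0.357 to 0.377 in fresh ACF and 0.659 to 0.676 in fresh YCF. Cultured groups lay between 0.847 in YCF+SoftY and 1.09 in ACF+StiffA, above every fresh library. These medians and ratios carry no test of the difference between the lists.

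Mitosis genes were also read on the substrates. Shares of all genes called in either direction are given in brackets. For stiff over soft gel, 9 of 30 rose in YCF (3.56%) and 1 of 30 in ACF (0.296%), and 0 fell in either. In YCF+StiffY over YCF+SoftY, 13 of 30 rose and 0 fell (4.56%), against 4 of 38 members. In ACF+StiffA over ACF+SoftY, which changes gel and matrix together, 11 of 30 rose and 0 fell (4.21%), against 2 of 38 members. In ACF+StiffA over ACF+SoftA (0.366%) and in ACF+StiffY over ACF+SoftY (0.0545%), 0 of 30 were called. Mitosis genes summed to 1950 to 2008 CPM in ACF+StiffA, against 1443 to 1545 CPM in ACF+SoftY, and to 2136 to 2251 CPM in YCF+StiffY, against 1446 to 1479 CPM in YCF+SoftY.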

How the data were processed

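RNA from 29 libraries of mouse cardiac fibroblasts was extracted with TRIZOL, and libraries were made from 20 ng with the NEBNext Single Cell/Low Input kit, per the labels' protocols. The submitters' processing notes name STAR 2.7.8a and mm39. The deposited table holds raw counts per gene, and its name refers to HTSeq, for which the sources used here give neither version nor strand setting. Without strand, reads of members that overlap a protein-coding neighbour (Mcm7, Cdc45, Gins2, Rfc2, Rfc4, Rfc5, Fen1, Lig1, Tk1, Chaf1a, Ccne2) are uncertain. The same holds for members that overlap a pseudogene, a noncoding RNA or an unconfirmed gene (Pola1, Pole, Pold1, Rrm1, Chaf1b, Slbp). It also holds for those with pseudogene copies (Pcna, Tyms).

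From the counts, edgeR 4.0.16 (limma 3.58.1, R 4.3.3) was run with the quasi-likelihood test after TMM scaling and a filter on low counts (filterByExpr, by group), with Benjamini-Hochberg adjustment over all genes tested. The fits held 6 fresh libraries (11786 genes), 23 cultured libraries (12841 genes) and all 29 (13523 genes). The SE was derived by dividing the size of a log2 fold change by the root of its F statistic, and intervals are 1.96 SE to each side. The scripts were tested on simulated data for fresh ACF over fresh YCF, the difference of differences and stiff over soft in YCF. Of 1.5-fold changes, 47.8%, 35.8% and 58.2% were called in these, and of 4-fold changes 100% in each. Small changes can therefore be missed. These shares are not split by expression level, so they do not speak for members with few counts. False calls were 19 of 177, 6 of 143 and 13 of 179 in the same order. Their share lay above the adjusted p threshold for fresh ACF over fresh YCF and for stiff over soft in YCF. For the difference of differences it lay below. Calls can therefore hold more false ones than the threshold states. Members and gene lists were chosen with earlier results of these data known. After the first results, 12 comparisons of 2 cultured groups were added, between substrates within an age or between ages on 1 substrate. All 38 members could be named in every comparison, and from each further list up to 4 called genes with the smallest p, or up to 2 with the highest mean CPM where none was called. Ccnd1, Cdkn1a, Mki67, Top2a and Plk1 could be given throughout. Alternatives were upper quartile factors, library totals, no filter, DESeq2 1.42.0, limma-voom, replicate blocks, other sets of libraries and leaving out each library. Promoters came from RefSeq, GRCm38.p6. With 1192668 to 3275089 counts per library, members under 10 CPM rest on few counts.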

Additional observations from a re-analysis of the deposited data

Results flagged for a closer look

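The culture response differed between ages by a test of the difference itself, the interaction of culture with age in edgeR's quasi-likelihood test. It was called for 33 members, all with a smaller drop in ACF than in YCF. Of 13523 genes, 20.6% were called in either direction and 10.5% were called higher. The test uses the same fresh libraries as fresh ACF over fresh YCF and is no separate evidence beside it. The difference in log2 fold change was 1.11 for Rrm1, 0.95 for Dnmt1, 1.02 for Mcm5, 0.79 for Rrm2, 1.21 for Tk1 and 1.099 for Hells. Fresh levels of these genes already differed between the ages, and cultured ACF and cultured YCF overlapped in all 6.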

How the results depend on the processing

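Single members were followed through the settings in fresh ACF over fresh YCF and in cultured over fresh cells of each age and their difference, for all 38, and in the other comparisons for the members called there. None of the values followed reversed its direction. Of the values called, 2285 of 2386 stayed called with 1 library left out and 1194 of 1238 under the other settings. Most of these came from the comparisons followed for all 38 members, and calls between cultured groups were less stable. With 1 library left out, ACF over YCF on StiffY kept 10 called values and lost 20, and on SoftA kept 2 and lost 4. StiffA over SoftY in ACF kept 4 and lost 8, while StiffA over StiffY in YCF kept 5 and lost 1. Of the values not called, 9 of 196 gained a call with 1 library left out and 9 of 70 under the other settings. Members not called in the other comparisons were not followed singly. Their direction is not fixed, since the median of the 38 took both signs in 6 of 27 comparisons as 1 library was left out, among them SoftA over SoftY in YCF (-0.23 to 0.09) and cultured ACF over cultured YCF (-0.03 to 0.01).

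Counts of members called were, with upper quartile factors, 1 for cultured ACF over YCF, 3 for ACF over YCF on StiffY and 0 on SoftY. With library totals only they were 1 for StiffA over SoftY in ACF, 1 for cultured ACF over YCF and 0 for ACF over YCF on SoftY. Without a filter they were 2 for stiff over soft in YCF, 2 for StiffA over StiffY in YCF, and 0 for SoftA over SoftY in YCF and for ACF over YCF on SoftA and on SoftY. DESeq2 gave 1 for stiffness by ECM in YCF, 2 for StiffA over StiffY and 0 for SoftA over SoftY in YCF, and for ACF over YCF 0 on SoftA, 3 on StiffY and 0 on SoftY. Without the 4 libraries under 1500000 counts they were 2 for stiff over soft, 1 for aged over young ECM and 0 for SoftA over SoftY in YCF, 1 for cultured ACF over YCF and 0 on SoftY. With all 29 libraries in 1 fit they were 4 for aged over young ECM in YCF and 1 in ACF, 1 for stiffness by ECM in YCF and 1 for cultured ACF over YCF. The cause was not tested.

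Whether replicate numbers pair the samples was left unsettled. Correlations were taken over genes between the deviations of log2 CPM from the group mean, not between the levels themselves. Same-numbered fresh ACF and fresh YCF libraries gave correlations from -0.074 to 0.086. Those of same-numbered cultured libraries of the same age ran from -0.246 to 0.348, with a median of 0.069. Of these 33 cultured pairs 10 were over 0.1, and 13 of 33 by library number. For cultured libraries of other numbers the median was -0.057, with 6 of 66 pairs over 0.1. Same-numbered cultured and fresh libraries of the same age had a median of 0.071, with 6 of 23 over 0.1. With the replicate block, 37 members were called in fresh ACF over fresh YCF. The block gave 1 for StiffA over SoftY in YCF, 1 each for stiff over soft, aged over young ECM and StiffA over SoftA in ACF, 2 for StiffA over StiffY and 0 for SoftA over SoftY in YCF, and 0 for ACF over YCF on SoftY. A block by library number gave 1 each for stiff over soft, aged over young ECM, StiffA over SoftA and SoftA over SoftY in ACF, and 4 for aged over young ECM, 2 for stiffness by ECM and 3 for StiffA over StiffY in YCF. Dut was called in cultured over fresh ACF with either block (adjusted p = 0.0348, and 0.0339 by library number), and Slbp in the difference between ages with the block by library number (adjusted p = 0.0106).

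Leaving out 1 library gave 0 to 1 for StiffA over SoftY in ACF, 1 to 5 for stiff over soft, 1 to 3 for aged over young ECM and 0 to 1 for stiffness by ECM in YCF, 0 to 1 for aged over young ECM in ACF, 0 to 2 for cultured ACF over YCF, 2 to 3 for StiffY over SoftY, 0 to 2 for StiffA over StiffY and 0 to 1 for SoftA over SoftY in YCF, and for ACF over YCF 0 to 3 on StiffY, 0 to 2 on SoftA and 0 to 0 on SoftY. With library totals only, the median of all genes shifted by -0.13 in fresh cells, where the members' median became -1.07, and 30.7% of calls were higher against 47.2% with TMM. It shifted by -0.11 in cultured over fresh YCF. In the difference between ages it shifted by 0.19, and 75.4% of calls were higher against 50.9%.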
